A study of Mus musculus with 12 samples.

Results

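A set of 9 genes of the complement system was followed in skeletal muscle: the chains of the initiating protein C1q (C1qa, C1qb and C1qc), the protease gene C2, the central components C3 and C4b, the receptors C3ar1 and C5ar1, and Cd55, which protects host cells from complement. They were picked by symbol from the 24421 entries of the count table, and 9 of the 9 were found and had enough counts to be tested. Messenger RNA was sequenced from the tibialis anterior, a muscle at the front of the lower hindlimb, of 12 male mice aged 4 months. The control group held 6 C57Bl/6 mice (WT), and the other group held 6 mdx/mTR mice. Mice of the mdx strain carry a mutation in Dmd, which encodes dystrophin, and mTR is a name of the telomerase RNA gene. Because both alleles differ between the groups, their contributions cannot be told apart. The strain name is the only description of the mutant mice in the labels, and the generation bred without telomerase is not given in the sources used here. Dmd, the check on the genotype label, had 228 to 244 CPM in WT and 35.2 to 56.4 CPM in mdx/mTR, where CPM is the count relative to the TMM-scaled library total.

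Complement is a cascade of plasma and tissue proteins that tags particles and damaged cells for removal. The classical pathway starts when C1q binds a target and its partner proteases C1r and C1s cut C4 and C2, whose fragments form an enzyme that cuts C3. Fragments of C3 coat the target and, with a fragment of C5, attract and activate leukocytes through the receptors C3ar1 and C5ar1, while the late components build a pore in membranes. Macrophages are a main source of C1q, the liver makes most circulating C3, and CD55 on host cells speeds the decay of the enzymes that cut C3. In dystrophic muscle, fibres break down and are repaired repeatedly, and macrophages are abundant there.

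Positions are those of GENCODE M21 on mouse assembly GRCm38, also called mm10. The C1q genes are neighbours on the minus strand of chromosome 4, in the order C1qb (136880129 to 136886187), C1qc (136889804 to 136893065) and C1qa (136895917 to 136898803). On chromosome 17, C4b spans 34728380 to 34743882, C2 spans 34862604 to 34898265 and C3 spans 57203970 to 57228136. C3ar1 lies on chromosome 6 (122847138 to 122856161), C5ar1 on chromosome 7 (16246743 to 16259540) and Cd55 on chromosome 1 (130439027 to 130462744). Stretches of 50 bases of the longest coding transcript were not shared with other genes for C1qa, C1qb, C1qc, C3, C3ar1 and C5ar1. The share was 58.0% for C2, mostly with the overlapping gene model Gm20547, 35.2% for C4b, mostly with its near copy C4a, and 13.3% for Cd55, mostly with its copy Cd55b. How shared reads were counted is not given in the sources used here, so the levels of C2, C4b and Cd55 are less certain than those of the other genes. The same holds where an antisense gene model overlaps an exon, as Gm16083 does for Cd55 and Gm16567 for C1s1. C4a had 92 counts over the 12 libraries and Cd55b had 6, against 5789 for C4b and 44890 for Cd55.

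Promoter sequence is shown for C1qb and C1qc, neighbouring genes whose transcripts rose together, and for C3, the gene among the 9 that was not called. RefSeq promoters of GRCm38.p6 were matched for 6 of the 9 genes. The stretches below run 5′ to 3′ on the gene's own strand, keep only bases before the first annotated transcript start, and have in capitals the letters GAGGAA, the core bound by the myeloid factor PU.1, or its reverse complement.
C1qb (chr4:136886201-136886450, minus strand): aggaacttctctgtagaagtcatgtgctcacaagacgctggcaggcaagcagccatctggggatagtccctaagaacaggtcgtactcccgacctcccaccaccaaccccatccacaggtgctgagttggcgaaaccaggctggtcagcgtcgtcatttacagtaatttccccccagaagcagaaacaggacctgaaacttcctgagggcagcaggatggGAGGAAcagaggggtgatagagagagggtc
C1qc (chr4:136893066-136893164, minus strand): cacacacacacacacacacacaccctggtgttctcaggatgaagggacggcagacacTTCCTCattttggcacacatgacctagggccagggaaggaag
C3 (chr17:57228137-57228386, minus strand): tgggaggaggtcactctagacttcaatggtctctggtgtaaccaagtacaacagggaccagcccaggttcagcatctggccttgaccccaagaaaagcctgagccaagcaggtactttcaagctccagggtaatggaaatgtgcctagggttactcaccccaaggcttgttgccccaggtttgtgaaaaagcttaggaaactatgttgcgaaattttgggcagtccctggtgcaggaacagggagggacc
The search covered both strands of the 250 bases before the start in the RefSeq table, which is more than is printed for C1qc. Other annotated transcripts of C1qc, C3ar1, C5ar1 and Cd55 start farther upstream, so that 99, 246, 48 and 0 of their 250 bases lie before every annotated start, and the rest of each window lies within an annotated gene. GAGGAA occurred once in C1qb, 30 to 25 bases before the table's start. It occurred once in C1qc, on the opposite strand, 193 to 188 bases before the table's start and 42 to 37 bases before the first annotated start, where the printed stretch ends. It was not found in the 250-base windows of C3, C3ar1, C5ar1 and Cd55. Of 32851 promoter windows of that length, 23.3% hold it. A pair of GAAA separated by any 2 bases (an interferon regulatory factor motif, in 2.98% of windows) and TTCNNNGAA (a STAT site, in 7.02%) were in 0 of the 6 windows of 250 bases. A match of letters describes the sequence and is not a measured binding site.

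Of the 9 genes, 8 were higher in mdx/mTR and 0 were lower at an adjusted p below 0.05 (edgeR quasi-likelihood test, Benjamini-Hochberg over 13937 genes). Among all genes tested, 25.0% were called higher and 23.4% lower, or 48.3% in either direction. For 7 of the 9 every mdx/mTR mouse lay above every WT mouse, where this held for 12.6% of all tested genes. The median log2 fold change of the 9 was 1.57, against 0.01 over all genes tested. The 9 genes were chosen with earlier results of these data known, so these contrasts with all genes are descriptions only. C3ar1 had the largest rise, at 5.80-fold, the C1q chains rose by 3.31-fold to 3.64-fold, and C3 stood at 0.847 of WT, which was not called. The same 8 genes had an adjusted p below 0.05 in the authors' deposited table, with log2 fold changes from 0.98 to 1.95, and C3 had -0.24 there with an adjusted p of 0.15. C3ar1 had 1.95 there but 2.52 in a DESeq2 fit run here on the deposited counts. The deposited fold changes are therefore not directly comparable in size with those given here. Scaling by library totals alone raised the median over all genes by 0.16 on the log2 scale and moved the split of calls to 5596 higher and 1560 lower, from 3479 and 3257. Under it the count for the 9 genes was again 8 higher and 0 lower. A bulk measurement cannot tell apart more cells of a type and more RNA per cell.

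**Figure D1:**
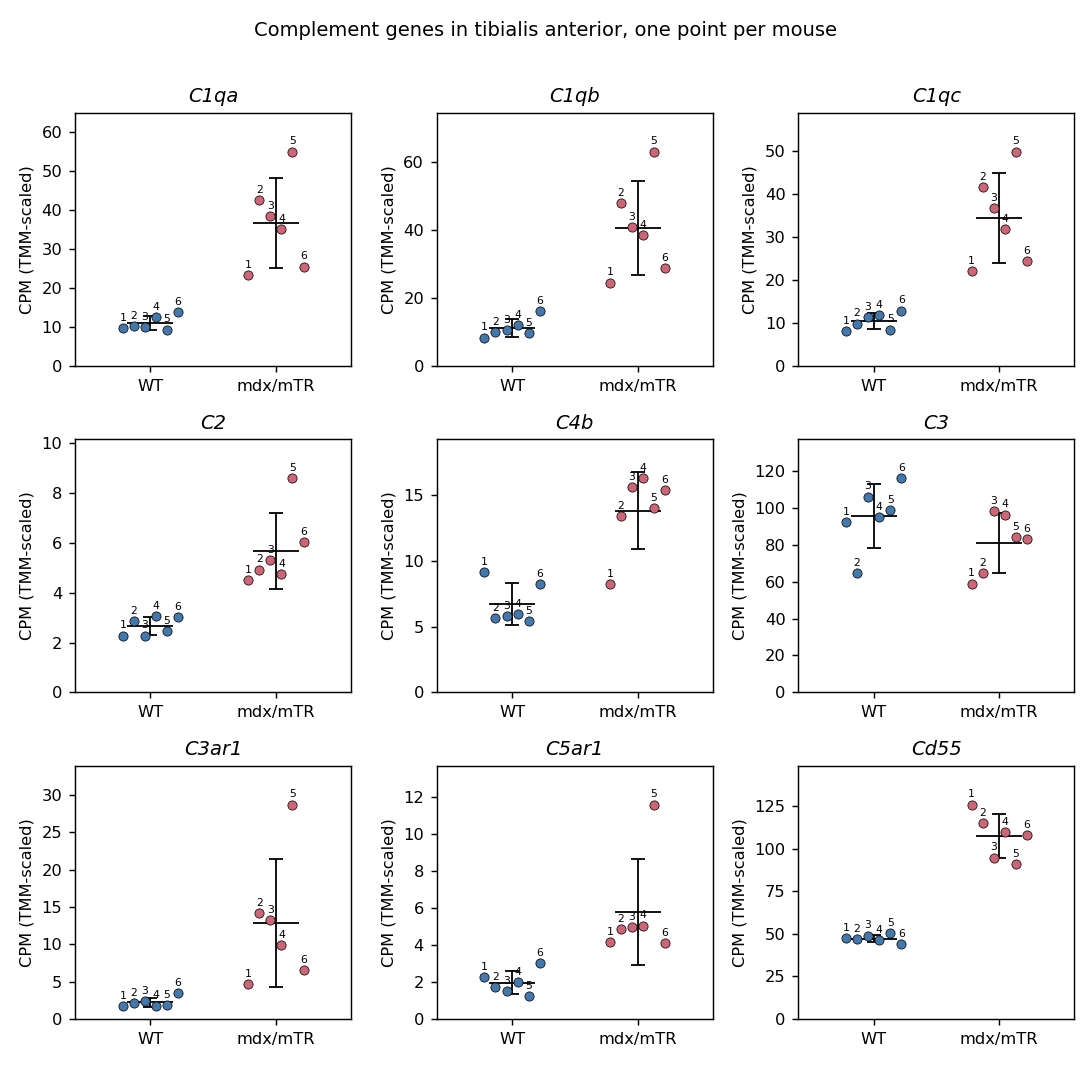
Level of each of the 9 genes in every mouse, in CPM after TMM scaling on an axis from 0, with numbered points for the 6 mice of each group and the mean with its SD in black. The groups are apart for 7 genes, C4b overlaps through mdx/mTR mouse 1, and C3 overlaps widely.

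C1q is built from 3 kinds of chain, encoded by C1qa, C1qb and C1qc, and its collagen-like stalks and globular heads let it bind antibodies, C-reactive protein and dying cells. C1qa ran from 9.35 to 13.8 CPM in WT (median 10.1) and from 23.3 to 55.0 CPM in mdx/mTR (median 36.9). C1qb ran from 8.33 to 16.2 CPM in WT (median 10.3) and from 24.6 to 63.2 CPM in mdx/mTR (median 39.8). C1qc ran from 8.14 to 12.9 CPM in WT (median 10.6) and from 22.1 to 49.9 CPM in mdx/mTR (median 34.3). For each chain the lowest mdx/mTR mouse lay above the highest WT mouse. The log2 fold changes were 1.74 ± 0.19 (SE, n = 6 per group, edgeR adjusted p 1.1e-05) for C1qa, 1.87 ± 0.22 (edgeR adjusted p 1.8e-05) for C1qb and 1.72 ± 0.19 (edgeR adjusted p 1.2e-05) for C1qc.

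The proportions of the chains were compared per kilobase of transcript. The share of C1qa was 36.0% ± 2.16 for WT and 34.9% ± 0.493 for mdx/mTR (SD, n = 6 each). C1qb made up 34.6% ± 2.22 and 36.8% ± 0.915, and C1qc 29.4% ± 1.89 and 28.4% ± 0.793. The log2 ratio of C1qa to C1qb was lower in mdx/mTR by a mean difference of -0.13 (two-sided exact permutation test, p 0.0693, adjusted p 0.0693 over the 6 ratios compared here). That of C1qc to C1qb differed by -0.14 (exact permutation p 0.0649, adjusted p 0.0693). Without WT replicate 6, whose C1qb was the highest of WT, both passed, at -0.175 (exact permutation adjusted p 0.0173) and -0.189 (exact permutation adjusted p 0.0260). The 6 mdx/mTR mice had the same order for all 3 chains, with replicate 5 highest, then 2, 3, 4 and 6, and replicate 1 lowest.

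Macrophage marker genes moved with C1q. Of 8 listed markers 6 were higher and 0 lower, their summed level was 82.8 to 143 CPM in WT and 229 to 587 CPM in mdx/mTR, and mdx/mTR replicates 5 and 1 were again the highest and lowest mutant libraries. Against that sum, C1qa was 9.48% ± 1.30 in WT and 10.2% ± 0.548 in mdx/mTR, and the ranges overlapped. C1qb was 9.51% ± 1.08 and 11.3% ± 0.694, and C1qc 8.92% ± 0.620 and 9.65% ± 0.662, also with overlap. The choice of marker mattered. Against Csf1r, the receptor of the macrophage growth factor, C1qb was 52.8% ± 6.09 in WT and 77.5% ± 4.67 in mdx/mTR without overlap. Against Adgre1, the gene of F4/80, it was 229% ± 31.0 and 213% ± 22.9. C1qa and C1qc were also higher in mdx/mTR without overlap against Csf1r, and overlapped against Adgre1. Cd163, a scavenger receptor of resident macrophages (log2 fold change 0.09 ± 0.14, edgeR adjusted p 0.610), and Mertk, a receptor for dying cells (0.35 ± 0.18, edgeR adjusted p 0.121), were the 2 markers not called. The part of macrophage number in the rise of C1q was not tested.

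The proteases that act with C1q were also higher. C1ra rose from 7.76 ± 0.824 to 14.6 ± 1.43 CPM (SD, n = 6 each; log2 fold change 0.92 ± 0.08 SE, edgeR adjusted p 2.9e-06). C1s1 rose from 32.5 ± 3.51 to 55.8 ± 5.80 CPM (0.78 ± 0.08 SE, edgeR adjusted p 8.1e-06). Neither overlapped between groups, and among the mdx/mTR mice each varied by 1.33-fold to 1.34-fold from lowest to highest, against 2.25-fold to 2.57-fold for the C1q chains. Both share stretches with a copy, 50.8% of C1ra with C1rb and others and 24.3% of C1s1 with C1s2 and others. C1rb had 1 count and C1s2 had 58 counts in all. Low counts of a copy do not settle how shared reads were counted, so the levels of C1ra and C1s1 are less certain too. Fibroblast markers were higher in mdx/mTR too, with 5 of 5 called. Their summed level was 841 to 1559 CPM in WT and 2160 to 4359 CPM in mdx/mTR. Single markers rose by 1.51-fold (Dcn) to 3.19-fold (Col3a1), and Col3a1 was the largest part of the sum. The part of fibroblasts in the rises of C1ra and C1s1 was not tested.

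C2 and C4b supply the enzyme that cuts C3. C2 ran from 2.28 to 3.08 CPM in WT (median 2.67) and from 4.51 to 8.61 CPM in mdx/mTR (median 5.13), with no overlap. Its log2 fold change was 1.09 ± 0.16 (SE, edgeR adjusted p 0.00010). C4b ran from 5.41 to 9.17 CPM in WT (median 5.89) and from 8.24 to 16.3 CPM in mdx/mTR (median 14.7). In 5 of the 6 mdx/mTR mice C4b lay above every WT mouse. The exception, mdx/mTR replicate 1 at 8.24 CPM, lay below WT replicates 1 and 6, at 9.17 and 8.26 CPM. Its log2 fold change was 1.04 ± 0.17 (SE, edgeR adjusted p 0.00027).

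C3, on which all routes of complement activation converge, was the exception. It ran from 64.7 to 116 CPM in WT (median 96.9) and from 58.9 to 98.3 CPM in mdx/mTR (median 83.4), and no mdx/mTR mouse exceeded the highest WT mouse. The log2 fold change was -0.24 ± 0.14 (SE, edgeR adjusted p 0.186). WT replicate 2 had 64.7 CPM, where the other WT mice had 92.1 to 116 CPM, and bore on that call. Without it C3 was lower in mdx/mTR, with a log2 fold change of -0.331 (edgeR adjusted p 0.0429). With library totals alone the value was -0.0800 (edgeR adjusted p 0.679). Markers of liver cells, the main source of circulating C3, were at or near 0 in every library: Ttr, Serpina1a and Fgb had 0 counts, and the sum over the 5 liver markers was at most 0.0821 CPM.

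The level of C3 relative to C4b in the same mouse differed between the groups. The log2 ratio of C3 to C4b was 3.26 to 4.07 in WT and 2.22 to 2.76 in mdx/mTR, a mean difference of -1.23 (two-sided exact permutation p 0.00216, the smallest this design can give, adjusted p 0.00649), and the 6 mdx/mTR mice all lay below the 6 WT mice. Apart from the 0.5 CPM added to each gene, a ratio within a library does not depend on how libraries are scaled.

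The other genes that feed or drive C3 cleavage divided. Cfb, which takes the place of C2 in the alternative pathway and lies beside it on chromosome 17, rose from 6.84 ± 1.30 to 18.6 ± 5.89 CPM (SD, n = 6 each; log2 fold change 1.44 ± 0.19 SE, edgeR adjusted p 5.1e-05). Gene model Gm20547 also overlaps Cfb, and 81.4% of the stretches of Cfb are shared, against 58.0% for C2. The level of Cfb is therefore uncertain too, and so is a ratio of C2 to Cfb. The log2 ratio of C2 to Cfb differed by -0.40 between the groups (exact permutation p 0.0368, adjusted p 0.0552). Without WT replicate 3, 5 or 6, or mdx/mTR replicate 1 or 6, it passed at -0.420 to -0.466 (exact permutation adjusted p 0.0325 to 0.0476). Cfp, properdin, which steadies the alternative enzyme, rose from 6.38 ± 1.03 to 11.8 ± 4.73 CPM (0.89 ± 0.21 SE, edgeR adjusted p 0.00325). Cfd, the protease that cuts factor B and a product of fat cells, went from 18.9 ± 3.17 to 24.6 ± 11.2 CPM and was not called (0.38 ± 0.24 SE, edgeR adjusted p 0.203). Its highest library, mdx/mTR replicate 3 at 43.6 CPM, also had the highest summed level of fat cell markers, 15.4 CPM against 4.62 to 10.9 CPM elsewhere, and their part was not tested.

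C3ar1 and C5ar1 are receptors on leukocytes for the small fragments cut from C3 and C5. C3ar1 ran from 1.75 to 3.42 CPM in WT (median 1.97) and from 4.65 to 28.7 CPM in mdx/mTR (median 11.6). C5ar1 ran from 1.23 to 3.01 CPM in WT (median 1.86) and from 4.12 to 11.6 CPM in mdx/mTR (median 4.92). All mdx/mTR mice lay above all WT mice for both, and mdx/mTR replicate 5 was the highest for both. The log2 fold change was 2.54 ± 0.38 (SE, edgeR adjusted p 0.00014) for C3ar1 and 1.57 ± 0.28 (SE, edgeR adjusted p 0.00050) for C5ar1. Without mdx/mTR replicate 5 these were 2.13 (edgeR adjusted p 5.49e-05) and 1.24 (edgeR adjusted p 0.000128).

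The receptor of C3 fragments rose more than that of C5. The log2 ratio of C3ar1 to C5ar1 was -0.29 to 0.53 in WT and 0.14 to 1.45 in mdx/mTR, a mean difference of 0.80 (exact permutation p 0.0130, adjusted p 0.0260). Without WT replicate 1 or 4, or mdx/mTR replicate 2, 3, 4 or 5, the difference was 0.697 to 0.805 and its exact permutation adjusted p was 0.0519. Within mdx/mTR, replicate 1 had the lowest ratio, inside the WT range. C5ar2, the second receptor of the C5 fragment, was low and rose from 0.530 ± 0.165 to 1.02 ± 0.378 CPM (0.94 ± 0.28 SE, edgeR adjusted p 0.0131). Hc, the gene of C5 itself, had 9 counts over the 12 libraries, so C5 transcript was near the limit of detection in both groups, where 3 counts correspond to 0.0460 to 0.0837 CPM.

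The integrin receptors that bind C3 fragments on coated particles rose as well. Itgax rose from 0.823 ± 0.347 to 4.57 ± 2.05 CPM (SD, n = 6 each; log2 fold change 2.47 ± 0.32 SE, edgeR adjusted p 4.7e-05). Itgb2, the partner chain of Itgam and Itgax, rose from 2.87 ± 0.835 to 14.2 ± 8.90 CPM (2.30 ± 0.36 SE, edgeR adjusted p 0.00017). Itgam rose from 4.06 ± 1.14 to 18.4 ± 17.8 CPM (2.17 ± 0.47 SE, edgeR adjusted p 0.00183), and its log2 fold change was 1.47 without mdx/mTR replicate 5 (edgeR adjusted p 0.000441). For Itgam 72.4% of stretches are shared, mostly with the overlapping gene model Gm49368. Markers of neutrophils, which also carry C5ar1 and Itgam, summed to 0.639 to 2.14 CPM in WT and 1.87 to 18.6 CPM in mdx/mTR. Of the 6 listed markers 3 were tested, with 2 higher and 0 lower, and S100a9 was not called. Ngp, Mpo and Retnlg were not tested and had 3, 8 and 84 counts in all. The highest sum was in mdx/mTR replicate 5, where Csf3r made 12.7 CPM of it. The part of neutrophils in the receptor values was not tested. Cr2, the complement receptor of B cells, had 71 counts in all and Vsig4, a macrophage receptor for C3 fragments, had 69, and neither was tested.

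Cd55 encodes a membrane protein that dissociates the enzymes cutting C3 and C5. It ran from 43.8 to 50.3 CPM in WT (median 47.0) and from 91.2 to 126 CPM in mdx/mTR (median 109), with every mdx/mTR mouse above every WT mouse. The log2 fold change was 1.19 ± 0.07 (SE, edgeR adjusted p 9.0e-08), the smallest p of the 9 genes. Its spread was narrow, with a coefficient of variation of 4.75% in WT and 12% in mdx/mTR, where the C1q chains and receptors had 30.6% to 66.7% in mdx/mTR. The order of the mutant mice also differed from that of C1q. The highest Cd55 was in mdx/mTR replicate 1, which had the lowest C1q, and the lowest Cd55 in replicate 5, which had the highest.

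Among membrane regulators tested, Cd55 was the 1 of 7 that was called. Cd59a, which blocks the membrane pore, went from 18.4 ± 3.40 to 19.7 ± 2.67 CPM (SD, n = 6 each; log2 fold change 0.10 ± 0.12 SE, edgeR adjusted p 0.531). Cr1l, the rodent regulator also called Crry, went from 19.0 ± 1.08 to 19.4 ± 0.453 CPM (0.03 ± 0.05 SE, edgeR adjusted p 0.626), and was called higher with library totals alone (0.189, edgeR adjusted p 0.0175). Cd46, Cd59b, Csmd1 and Susd4 were low, at 0.208 to 1.84 CPM on average, and were not called. The log2 ratio of Cd55 to Cd59a was 0.99 to 1.65 in WT and 2.19 to 2.68 in mdx/mTR, a mean difference of 1.07 (exact permutation p 0.00216, adjusted p 0.00649), with no overlap.

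**Figure D2:**
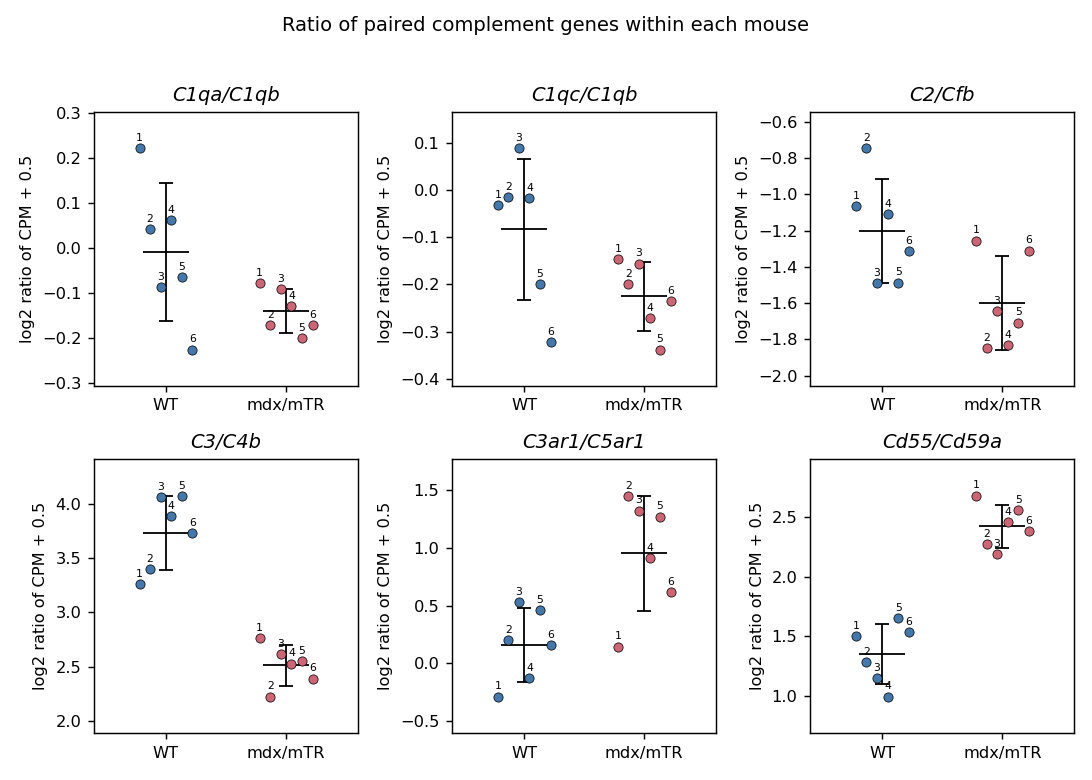
Log2 ratio of the CPM of 2 complement genes within each mouse (0.5 CPM added to each), with numbered points for the 6 mice of each group and the mean with its SD in black, on axes that do not start at 0. The groups are apart for C3/C4b, at 2.22 to 2.76 in mdx/mTR, and for Cd55/Cd59a, at 2.19 to 2.68, and overlap for the other 4 ratios.

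Regulators in the fluid phase were examined next. Serping1, the C1 inhibitor, rose from 86.8 ± 6.51 to 145 ± 14.4 CPM without overlap (SD, n = 6 each; log2 fold change 0.74 ± 0.07 SE, edgeR adjusted p 3.9e-06). Clu, a chaperone that binds the forming pore, stood at 54.3 ± 12.8 CPM for WT and 54.9 ± 15.1 CPM for mdx/mTR (0.01 ± 0.18 SE, edgeR adjusted p 0.959), and its sign changed when single mice were left out. Vtn, vitronectin, which also binds the late components, stood at 28.2 ± 3.36 and 26.2 ± 2.53 CPM (-0.11 ± 0.08 SE, edgeR adjusted p 0.305), with a value of 0.0512 under library totals alone. Cfi, which degrades C3 fragments, had 17 counts and C4bp had 2 counts over all libraries.

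Many genes of the lectin and terminal arms had too few counts to be tested. Masp1, a protease of the lectin pathway, rose from 2.73 ± 0.767 to 4.06 ± 0.602 CPM (SD, n = 6 each; log2 fold change 0.58 ± 0.17 SE, edgeR adjusted p 0.0126). Fcna and Colec11, lectins that can start that pathway, were not called, and Mbl1 and Mbl2, the mannose-binding lectins of the liver, had 0 counts. Of the 7 genes of the pore, 2 were tested and neither was called. C7 stood at 13.9 ± 1.79 and 15.6 ± 3.54 CPM (0.16 ± 0.14 SE, edgeR adjusted p 0.358), and C8g at 1.91 ± 0.310 and 2.10 ± 0.552 CPM (0.13 ± 0.18 SE, edgeR adjusted p 0.578). C8a and C8b had 0 counts, C9 had 5 and C6 had 77. At 95% confidence, a count of 0 allows an expected count of at most about 3 in a library, or 0.0460 to 0.0837 CPM. C8a and C8b were thus not detectable at this depth.

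Over the whole list of 44 other complement genes, 24 had enough counts to be tested, 11 were called higher and 0 lower in edgeR, with a median log2 fold change of 0.42. The background is 25.0% higher and 23.4% lower among all genes tested. The list, like the 9 genes, was chosen with earlier results of these data known. With the 9 genes included, 6 of 6 tested receptors and 5 of 5 tested genes of classical initiation were higher. Among other roles, the counts were 4 of 6 central genes, 1 of 3 lectin genes, 1 of 7 membrane regulators and 0 of 2 terminal genes. The medians by role ran from 2.24 for receptors and 1.72 for classical initiation to 0.10 for membrane regulators and 0.09 for lectin genes. At an adjusted p below 0.01, 9 of the 11 remained.

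**Figure D3:**
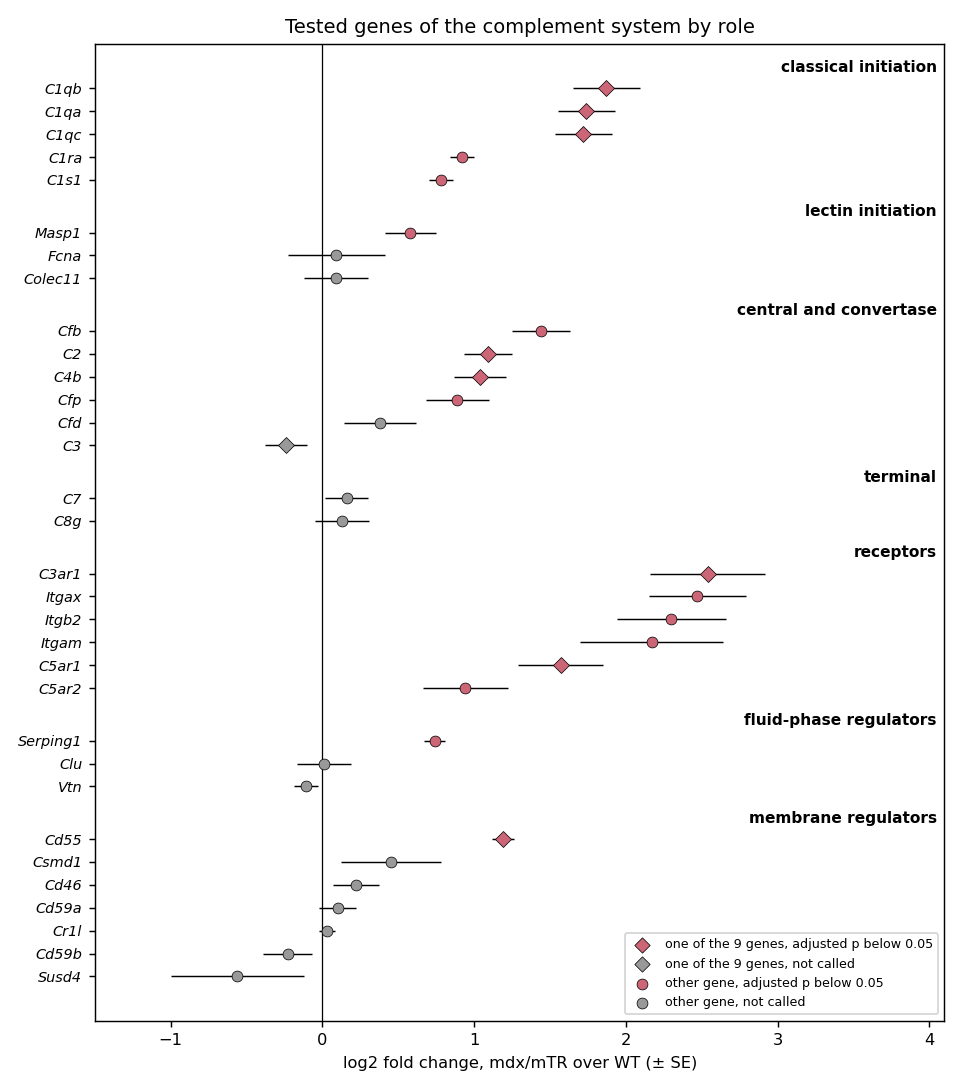
Each point is the log2 fold change between the groups (positive where mdx/mTR is higher, bars give the SE) for 1 tested complement gene, grouped by role, with diamonds for the 9 genes and red for an adjusted p below 0.05. The C1q chains and the receptors other than C5ar2 lie farthest to the right, at up to 2.54, and Susd4 lies farthest to the left, at -0.56.

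Levels could be compared between genes only per length of transcript. Among the 9 genes in WT, Cd55 (18.7 ± 0.886 CPM per kilobase, SD, n = 6) and C3 (18.6 ± 3.37) stood highest and did not differ beyond their spread. The C1q chains followed at 8.65 to 10.5 CPM per kilobase, also within their spread of each other. C4b, C2, C5ar1 and C3ar1 were low, at 1.25, 1.01, 0.768 and 0.514 CPM per kilobase, and each overlapped its neighbour in that order. In mdx/mTR, Cd55 was at 42.5 ± 5.09 CPM per kilobase and the C1q chains at 28.6 to 37.4, with overlapping ranges, while C3 was at 15.7 ± 3.14. C1qa and C1qb ranged above C3 in every mdx/mTR mouse, from 22.4 and 22.6 CPM per kilobase against a highest C3 of 19.1. C3ar1, the lowest of the 9 in WT, reached 2.99 ± 1.99 CPM per kilobase, within the spread of C4b, C5ar1 and C2.

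The 6 mdx/mTR mice differed in how far the genes rose. Replicate 5 was the highest for 6 of the 9 genes and the lowest for Cd55, while replicate 1 was the lowest for 7 and the highest for Cd55. From the lowest to the highest mdx/mTR mouse, C3ar1 spanned 6.17-fold, C5ar1 2.81-fold and the C1q chains 2.25-fold to 2.57-fold, against 1.98-fold for C4b, 1.91-fold for C2, 1.67-fold for C3 and 1.38-fold for Cd55. Replicates 1 and 5 were also the ends of the mdx/mTR group in TMM factor (0.988 and 1.16) and in the summed level of 5 muscle fibre genes (131608 and 95528 CPM), and the part of these in the order was not tested. The summed macrophage level of these mice was 229 and 587 CPM. With each mouse left out in turn, the same 8 genes were called higher, and in the fit without WT replicate 2 C3 was called lower as well.

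**Figure D4:**
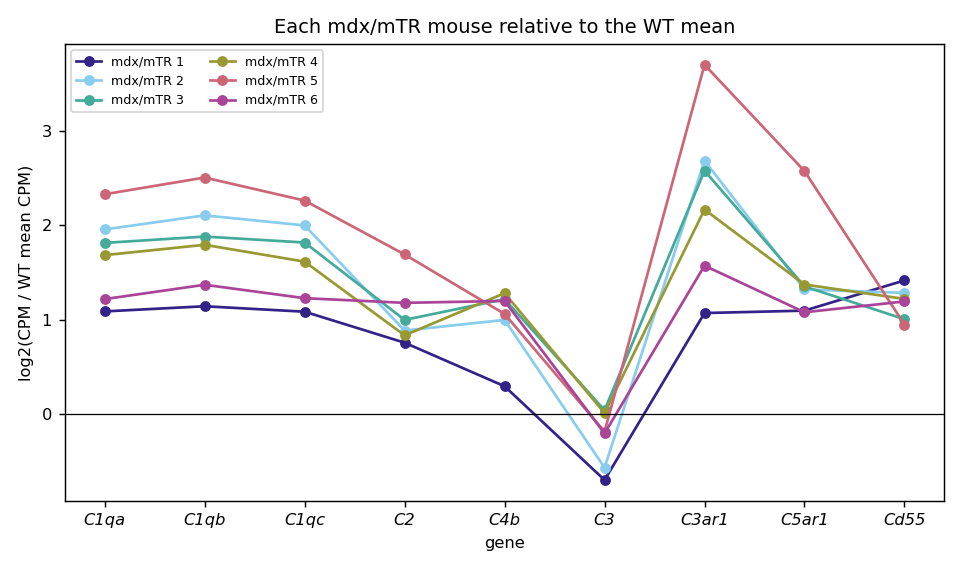
Log2 of each mdx/mTR mouse's CPM over the mean of the 6 WT mice, with 1 line per mouse across the 9 genes. The lines of replicates 5 and 1 bound the C1q chains and C3ar1 from above and below, cross at Cd55, and all lines dip at C3.

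The genes whose level varied most like each of the 9 were sought as a description. The measure was Pearson's r of log2(CPM + 0.5) after subtracting each group's mean, over the 12 libraries and up to 9509 genes with a mean of at least 5 CPM. C1qa was nearest to Cd68 (r = 0.974), Csf1r (0.967) and C1qb (0.965), and C1qc to Ctss (0.984), Cd68 (0.982) and Csf1r (0.965). C1qb was nearest to Fcer1g (0.976), an adaptor of antibody receptors, Slc11a1 (0.969), a metal transporter of phagosomes, and C1qa (0.965). C3ar1 was nearest to Arhgdib (0.979), Cotl1 (0.964) and Capg (0.962), and C2 to Ifitm2 (0.956), Trim25 (0.948) and Dab2 (0.944). C5ar1 was nearest to Mpdu1 (0.921), Irf7 (0.917) and Rab7b (0.904). The nearest genes of C4b (Aebp1 0.826, Nfkbib 0.809, Tbx1 0.798), C3 (Enoph1 0.906, Tab3 0.879, Vars 0.875) and Cd55 (Lamtor1 0.945, Pex2 0.922, Rnf128 0.910) had r from 0.798 to 0.945. Of the 8 listed macrophage markers, Cd68 and Csf1r were among the nearest genes, for C1qa and C1qc. The points share library preparation, depth and scaling, and these genes were picked as the highest r of all compared.

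The other members were also set against the macrophage marker sum, in which Lyz2 weighed most. C3 was 83.5% ± 19.6 of the sum in WT and 24.3% ± 8.09 in mdx/mTR, without overlap (no test was run). C3ar1 was 1.89% ± 0.351 and 3.27% ± 0.948, C5ar1 1.70% ± 0.596 and 1.59% ± 0.315, C2 2.31% ± 0.298 and 1.67% ± 0.518, C4b 6.02% ± 2.51 and 4.14% ± 1.48, and Cd55 41.8% ± 9.57 and 33.8% ± 14.6, and each of these overlapped. Against Csf1r alone C3ar1 was 10.5% ± 2.05 and 22.6% ± 7.28 without overlap, and against Adgre1 alone it was 45.1% ± 5.17 and 60.8% ± 14.3 with overlap. Of the other marker lists, endothelium had 2 of 4 genes lower (summed level 391 to 516 CPM in WT, 311 to 414 CPM in mdx/mTR) and skeletal muscle 1 of 5 higher and 1 lower (122838 to 147502 and 95528 to 131608 CPM). Fat cell markers had 0 of 3 tested called, B cell markers 0 of 1 and red cell markers 0 of 1, and T cell markers were too low to test, at most 0.511 CPM in sum.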

How the data were processed

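Messenger RNA of 12 tibialis anterior muscles was sequenced. Per the labels' protocols, RNA was isolated with a miRNeasy kit and passed an integrity check before standard Illumina libraries were made. FastQC, STAR, DESeq2 and the build mm10 are named in the submitters' processing notes. The counter, the annotation and strand handling are not given in the sources used here. The authors deposited raw counts per gene symbol. A comparison table deposited beside them gives a signal averaged over all libraries, a log2 fold change, scores (its standard error and test statistic) and p-values, per the file headers.

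Counts were tested with edgeR 4.0.16 in R 4.3.3 (filterByExpr, 13937 genes with 99.97% of counts, TMM, glmQLFit, glmQLFTest, group as the only term, Benjamini-Hochberg, threshold 0.05). The SE is the log2 fold change divided by the square root of F. Ratios of 2 genes used log2(CPM + 0.5) and two-sided exact permutation over 924 splits, adjusted over 6 ratios. Library totals were 35136327 to 60330410 counts, and a count of 3 equals 0.0460 to 0.0837 CPM, which covers counting error only. Nothing in the labels describes the mice beyond strain, age and sex, so p-values measure the spread between these samples. Replicates differed by more than sampling noise (chi-square per degree of freedom 9.29 to 122). The procedure was tested on simulated data. Same-numbered mice had correlated deviations above 0.1 in 2 of 6 pairs (-0.155 to 0.354). Mice with different numbers were not compared in this way, so the check cannot settle whether numbers pair mice. Shared 50-base stretches came from GENCODE M21 transcripts. Named genes were the 9, every tested gene of the complement list that was called or had a mean of at least 5 CPM, Dmd, and 3 nearest genes for each of the 9. Other genes (low or untested list members and single markers) were named after their values were seen. The 9 genes and the lists were chosen with earlier results of these data known. A gene of the list is counted in the totals but not reported here. Alternatives were 3 scalings, 2 filters, DESeq2 1.42.0, limma-voom (limma 3.58.1), a replicate block, each mouse left out, a threshold of 0.01 and other pseudocounts.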

Additional observations from a re-analysis of the deposited data

Results flagged for a closer look

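An extreme mouse was listed where its distance to the next mouse, as a share of the spread of its 6 mice, was over 0.625. This held for 6 of 52 sets of 6 values, 5 of them in mdx/mTR replicate 5. Chance gives 2.6 for normally distributed values. CPM was used here without a log and the genes are not independent, so 2.6 is only a rough guide. C5ar1 in mdx/mTR replicate 5 had 11.6 CPM, while the remaining mutant mice had 4.12 to 5.05 CPM (ratio 0.877). Itgam there had 53.7 CPM, with 6.12 to 16.7 CPM in the rest (ratio 0.779). The same library was highest for Cfp (20.9 CPM against 7.79 to 12.2 CPM, ratio 0.664), Itgb2 (30.9 CPM against 6.55 to 15.1 CPM, ratio 0.647) and C2 (8.61 CPM against 4.51 to 6.04 CPM, ratio 0.627). In mdx/mTR replicate 1, C4b stood at 8.24 CPM against 13.4 to 16.3 CPM (ratio 0.647). None of the 6 was in a WT mouse.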

How the results depend on the processing

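Under the alternatives run, 8 or 9 of the 9 genes passed: 8 higher and 0 lower in each, except with a replicate block and without WT replicate 2, where C3 was also called lower (replicate block: log2 fold change -0.242, edgeR adjusted p 0.0497). Between 9 and 13 of the other complement genes and between 4621 and 7235 of all genes passed. The 26 named complement genes had 519 values under the 20 alternative fits, all at a threshold of 0.05. Of these, 508 kept their direction and side of that threshold, 0 lost a call, 3 gained one and 8 changed sign. C5ar2 had no value with the filter of at least 1 CPM in 6 libraries. The threshold of 0.01 is not among these fits, and at it 9 of the 11 other complement genes remained. The sign changes were those of Clu (-0.00107 with a replicate block, -0.102 to 0.112 with a mouse left out) and Vtn (0.0512 with library totals alone). The gains were C3 in the fits named above and Cr1l with library totals alone (0.189). The replicate block ended no call among the 26.

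For the ratios, permuting only within same-numbered pairs (a replicate block of sign flips) gave unchanged differences of -1.226 for C3/C4b, 0.796 for C3ar1/C5ar1 and 1.069 for Cd55/Cd59a, each with an exact permutation adjusted p of 0.0625. Sign flips of 6 pairs cannot give a p under 0.0312 before adjustment, so this says nothing about the stability of these 3 ratios. C2/Cfb passed with a pseudocount of 2 (-0.481, exact permutation adjusted p 0.0162) and did not with 0.1 (-0.351, exact permutation adjusted p 0.0758). Its size and call therefore depended on the constant added. With a mouse left out, the ranges were -0.175 to -0.086 for C1qa/C1qb, -0.189 to -0.107 for C1qc/C1qb, -0.466 to -0.307 for C2/Cfb, -1.322 to -1.159 for C3/C4b, 0.697 to 0.958 for C3ar1/C5ar1 and 0.998 to 1.129 for Cd55/Cd59a. Low counts limit Hc, C6, C8a, C8b, C9, Cfi and C4bp, which were not tested.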
